A study of Homo sapiens with 59 samples.

Results

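The 40 genes described here act in G2 and mitosis, the last steps of the cell cycle before a cell divides. They were chosen by name as textbook genes of entry into mitosis, the spindle, the spindle checkpoint, chromosome segregation and cytokinesis. Earlier results of these data were known at that point, and the genes were followed through 7 comparisons. All 40 had a row in each of the 7 tables, which name 34622 genes between them (31283 in the histidine table, for example), and all 40 passed the filter on low values in every table. The cells were Jurkat, an established human T cell leukaemia line, and every group was collected at day 3. In 7 groups of 5 libraries, histidine, methionine, phenylalanine, tryptophan, isoleucine, leucine or valine, all amino acids that human cells cannot make, was given at 25% as labelled. Histidine, methionine, phenylalanine and tryptophan each had 5 control libraries of their own, while 4 branched-chain control libraries, numbered 1, 3, 4 and 5, served isoleucine, leucine and valine together. Results of those last comparisons therefore share their controls and are set side by side without being counted as independent. Each comparison asks whether a gene's mRNA differed between the restricted libraries and the controls of the same table.

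Passage through mitosis is driven by CDK1 bound to cyclin A or cyclin B and switched on by CDC25 phosphatases. Polo-like and Aurora kinases then build the spindle, the checkpoint kinases hold cells until chromosomes are attached, and the anaphase-promoting complex with its activator CDC20 starts the separation of sister chromatids. The mRNAs of these genes rise together late in each cycle, under the transcription factor FOXM1, the MuvB complex with B-MYB, and NF-Y, and they are kept low in resting cells by the DREAM complex. Jurkat cells divide continuously in culture, so these mRNAs are present in an unrestricted population.

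Promoters of this class are known for 2 short elements, the cell-cycle homology region (CHR, most often TTTGAA or TTCGAA), which is bound by MuvB, and the CCAAT box, which is bound by NF-Y. The following 4 promoter stretches are shown because these genes carried large falls under restriction and each stretch holds both elements. They cover 200 bases before to 30 bases after the start site, in the direction of the gene, from RefSeq on GRCh38.p14, with every TTTGAA and CCAAT match in capitals on either strand (TTCAAA and ATTGG are matches on the other strand). The stretches lie at chr14:55191556-55191785, minus strand (DLGAP5, a spindle organiser), chr15:90994506-90994735, minus strand (PRC1, which bundles midzone microtubules), chr15:59104946-59105175, plus strand (CCNB2, cyclin B2) and chr1:43358781-43359010, plus strand (CDC20).

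DLGAP5: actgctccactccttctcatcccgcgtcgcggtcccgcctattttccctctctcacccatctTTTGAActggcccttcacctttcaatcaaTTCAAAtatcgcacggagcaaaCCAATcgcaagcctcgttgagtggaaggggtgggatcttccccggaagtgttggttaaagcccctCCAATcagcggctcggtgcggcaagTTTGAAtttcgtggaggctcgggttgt

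PRC1: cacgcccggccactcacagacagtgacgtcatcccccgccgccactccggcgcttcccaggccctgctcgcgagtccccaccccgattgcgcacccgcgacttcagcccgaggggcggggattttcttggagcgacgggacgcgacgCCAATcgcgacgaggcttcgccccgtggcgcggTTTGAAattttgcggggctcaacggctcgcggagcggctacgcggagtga

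CCNB2: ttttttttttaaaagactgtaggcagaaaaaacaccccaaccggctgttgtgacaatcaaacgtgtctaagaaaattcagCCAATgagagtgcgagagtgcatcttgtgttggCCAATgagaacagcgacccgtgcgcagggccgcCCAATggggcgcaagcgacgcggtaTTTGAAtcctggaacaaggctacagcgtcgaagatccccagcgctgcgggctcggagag

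CDC20: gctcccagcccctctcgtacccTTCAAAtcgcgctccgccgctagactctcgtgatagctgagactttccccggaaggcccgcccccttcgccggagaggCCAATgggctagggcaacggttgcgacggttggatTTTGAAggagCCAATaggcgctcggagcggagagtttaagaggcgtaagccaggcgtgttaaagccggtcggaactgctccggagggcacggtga

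Of the 40 genes, 33 had an entry in the promoter table, with 40 windows of 300 bases between them. TTTGAA or TTCGAA on either strand stood in 28 of those windows (70%, belonging to 25 genes) against 16.4% of all 35116 windows in the table, and CCAAT in 32 (80%, 28 genes) against 34.6%. Both elements together stood in 24 windows (60%, 22 genes) against 6.38%. The windows of 8 genes, CCNA2, CCNB1, NEK2, PTTG1, AURKB, CENPE, KIF2C and KIF20A, held no TTTGAA or TTCGAA. Those of 5 genes, BUB1B, CDCA5, CENPE, KIF2C and ANLN, held no CCAAT. Genes without and with TTTGAA or TTCGAA had median log2 changes of -1.07 and -0.71 for methionine, but -0.26 and -0.54 for tryptophan. In the same order the medians were -0.30 and -0.31 for phenylalanine, -0.53 and -0.42 for valine and -0.24 and -0.04 for histidine. Without and with CCAAT the medians were -0.99 and -0.75 for methionine and -0.71 and -0.44 for tryptophan. These differences were not tested. A match is only a string of letters. The 4 genes whose promoters are printed did not all respond alike, since CDC20 rose under methionine restriction where DLGAP5, PRC1 and CCNB2 fell. AURKA, BUB3, TTK, TPX2, BIRC5, UBE2C and FOXM1 are named only.

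Library totals of normalised counts ran from 14.95 to 20.54 M. In the tryptophan table every restricted library (15.27 to 16.04 M) totalled less than every control (18.18 to 18.82 M). The same held in the methionine table (14.95 to 15.9 M against 16.07 to 17.48 M). All 8 T cell markers were present in every library, CD3E at 10605 to 20619.9 normalised counts, whereas the myeloid genes CD14 and LYZ reached at most 25.1 and 32.1. Of genes typical of other cells, CD79A of B cells was present in every library, at 202 to 817, and the epithelial genes CDH1 and EPCAM ran from 0 to 291 and from 0 to 199.6 (EPCAM and LYZ were listed in 1 table). Branched-chain control 1 and phenylalanine control 1 stood apart from their groups by a high mean level of ribosomal protein mRNAs (0.79 and 0.57 above the control mean on the log2 scale), and phenylalanine restricted 2 and valine restricted 2 lay highest among the restricted libraries of their tables (0.14 and -0.17). Histidine control 5 likewise lay above the other 4 histidine controls (0.33 against -0.11 to -0.05). Changes are differences of log2(normalised count + 1), restricted minus control, tested with limma, and a gene is said to have risen or fallen where the Benjamini-Hochberg adjusted p over all genes of its table was below 0.05. Whether replicate libraries stem from separate cultures is not stated in the labels, and p-values accordingly reflect the spread among these libraries alone, possibly a technical one.

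The response of the 40 genes depended on the amino acid. Under methionine restriction 36 fell and 1 rose, where 53.2% of all 16889 tested genes were called, 25.4% lower and 27.8% higher. Tryptophan restriction lowered 29 and raised 0, where 51.3% of all tested genes were called, 27.7% lower and 23.6% higher. Phenylalanine restriction lowered 15 and raised 0 against a background of 10.2% called (6.09% lower and 4.11% higher). With every library scaled to an equal total, 9 were lower, where 13.49% of all genes were called (758 of 17016 lower). Without phenylalanine control 1 and restricted 2, 21 were lower, where 26.45% of all genes were called (2386 of 16767 lower). For valine, 13 fell and 0 rose against 12.5% called (7.36% lower and 5.13% higher). Histidine restriction lowered 15 and raised 6 against 27.9% called (12.3% lower and 15.6% higher), the raised share of the 40 being close to that of all genes. In the leucine comparison 2 rose and 0 fell against 7.75% called (3.41% higher and 4.33% lower), and in the isoleucine comparison limma called 0 of the 40 and 0 of all 16623 genes tested. In bulk RNA, fewer cells in G2 or mitosis and less mRNA in each such cell cannot be told apart.

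The median log2 fold change of the 40 genes was -0.70 for methionine, -0.48 for tryptophan, -0.45 for valine, -0.31 for phenylalanine, -0.07 for histidine, 0.06 for leucine and 0.09 for isoleucine, while the median of all tested genes lay between -0.01 and 0.03. Scaling every library to an equal total moved the median of all genes to 0.15 for methionine, 0.27 for tryptophan, 0.15 for phenylalanine and 0.13 for valine, a shift common to the genes of a table that by construction leaves the distance between both medians nearly as it was (-0.71, -0.51, -0.34 and -0.46). Under that scaling the share of called genes that were higher went from 52.25% to 62.62% for methionine, from 45.93% to 70.95% for tryptophan, from 40.32% to 66.97% for phenylalanine and from 41.08% to 63.69% for valine. For histidine, the trimmed mean of M values moved it from 55.94% to 68.92% and turned the median of the 40 genes to 0.01. It gave 9 lower and 10 higher, where 1612 of all 17696 genes were lower and 3575 higher. With equal totals tryptophan had 22 lower and 6 higher, where 2814 of all 16697 genes were lower and 6872 higher.

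The calls that changed under these settings were those of the following genes. For histidine, the trimmed mean of M values ended the falls of BUB1B, KIF11, KIF20A, KIF2C, PRC1 and UBE2C, and called BIRC5, CDC20, CDC25C and CDCA5 higher. Leaving out histidine control 5 gave 16 lower and 6 higher, with ESPL1 no longer called, CENPF called lower and BIRC5 called higher. In that run 2084 of all 17545 genes were lower and 2754 higher. For tryptophan, equal totals ended the falls of AURKB, BUB3, CDCA8, ESPL1, KIF20A, PLK1 and TOP2A, and called BIRC5, CDC25C, CENPA, CENPE, HMMR and KIF4A higher. For phenylalanine, equal totals ended the falls of ANLN, CDCA8, KIF20A, KIF23, MAD2L1 and PRC1. Without phenylalanine control 1 and restricted 2, CCNA2, CCNB2, CENPF, MKI67, PTTG1 and UBE2C were called lower as well. Without branched-chain control 1 and valine restricted 2, AURKA, BIRC5, CENPF, ECT2, INCENP, MKI67, NUSAP1, PTTG1, TOP2A and UBE2C were called lower with valine as well.

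**Figure D1:**
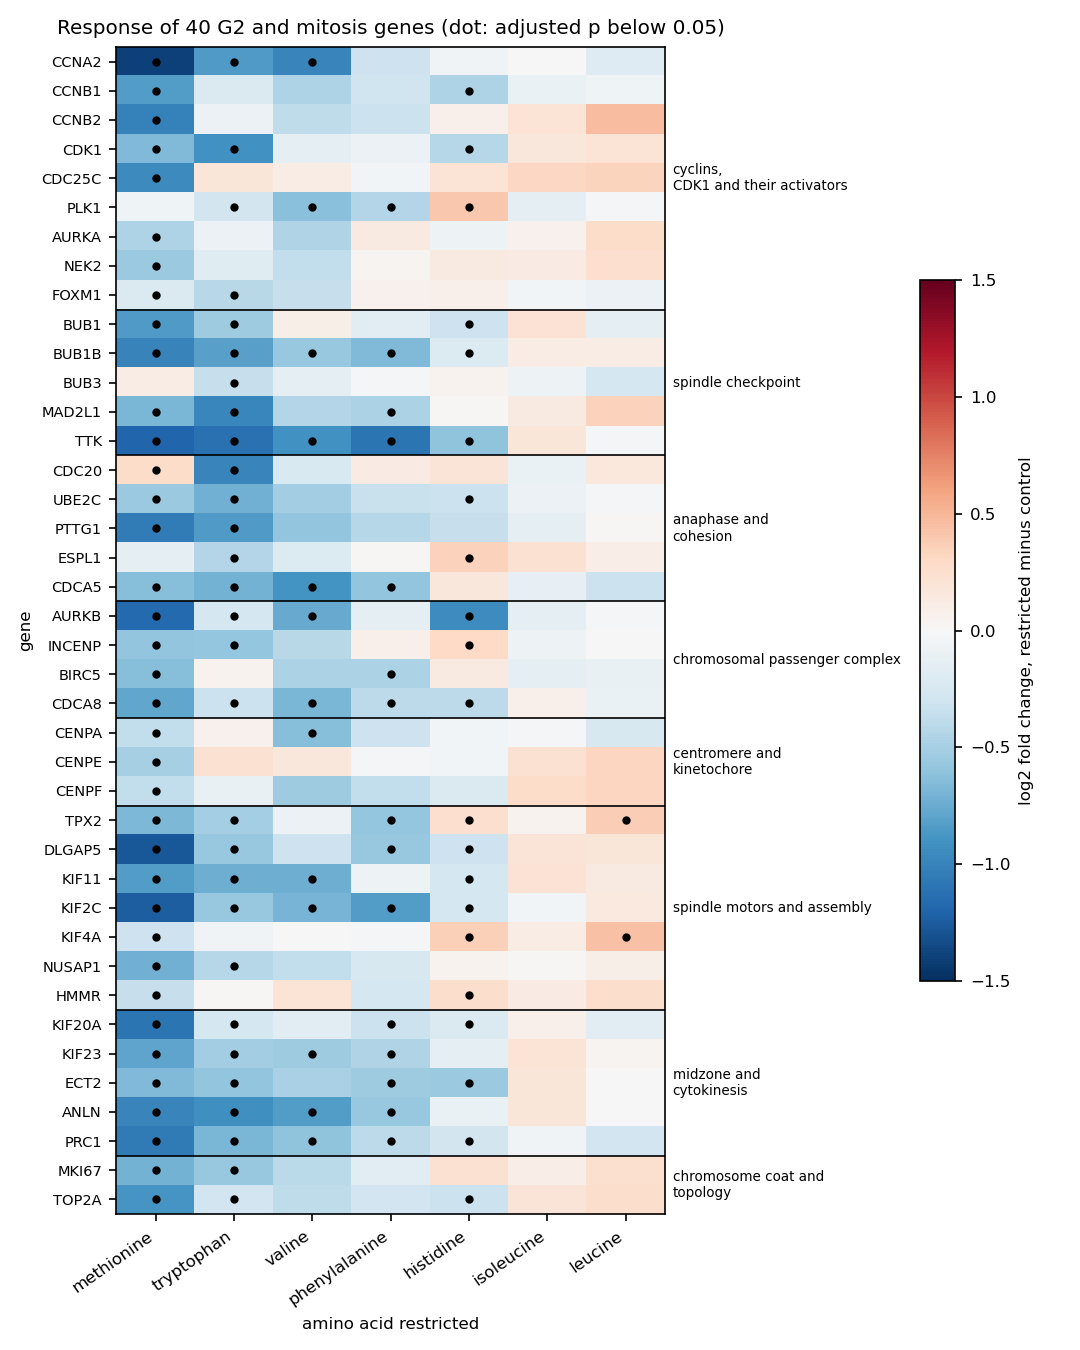
Log2 fold change (colour, restricted minus control) of the 40 genes, in rows ordered by role, in the 7 comparisons, in columns. Black dots mark limma adjusted p below 0.05: the methionine column holds 37 dots, the tryptophan column 29, the leucine column 2 and the isoleucine column 0.

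Averaged over the 40 genes, the methionine-restricted libraries lay 0.70 ± 0.03 below the control mean on the log2 scale (SD, n = 5) and the tryptophan-restricted libraries 0.45 ± 0.09 below. The valine-restricted libraries lay 0.42 ± 0.07 below and the phenylalanine-restricted libraries 0.30 ± 0.05 below, and in these 4 tables no restricted library reached a control. Histidine-restricted libraries lay 0.09 ± 0.05 below and overlapped the controls, whose SD was 0.08. Leucine- and isoleucine-restricted libraries lay 0.08 ± 0.06 and 0.07 ± 0.04 above, within the range of the 4 controls for isoleucine. The 40 genes took 0.774 to 0.824% of all normalised counts in methionine controls and 0.543 to 0.577% in methionine-restricted libraries. The same share was 0.637 to 0.718% in histidine controls and 0.737 to 0.806% in tryptophan controls, but 0.335 to 0.408% in phenylalanine controls and 0.351 to 0.427% in branched-chain controls, a difference between control groups that was not tested.

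**Figure D2:**
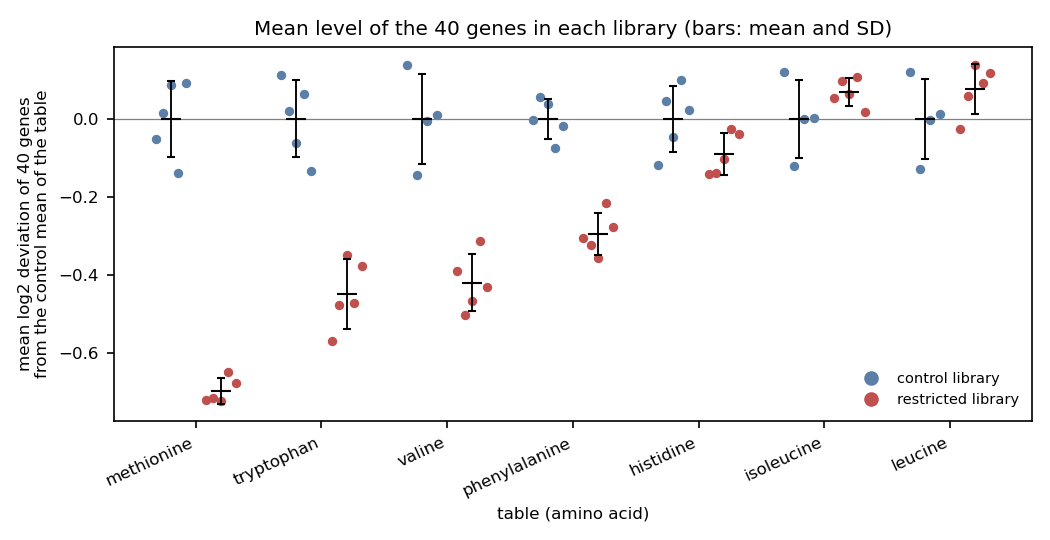
Mean log2 deviation of the 40 genes from the control mean of their table (vertical axis) for each control and restricted library (points), with the group mean and SD (bars). Methionine-restricted libraries sit lowest, between -0.72 and -0.65, and the isoleucine- and leucine-restricted libraries lie among or just above their controls.

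Among the cyclins, CDK1 and their activators (9 genes), methionine lowered 8, tryptophan 4, valine 2, histidine 2 and phenylalanine 1, and histidine raised 1. CCNA2, cyclin A2, which acts in S phase and G2 (GRCh38 chromosome 4, 121816444 to 121823933), had the largest fall of any of the 40 genes in any comparison. Its methionine-restricted libraries held 1013, 1069, 958, 1061 and 1011 normalised counts and the controls 2434, 2800.1, 3079, 2363 and 2887. Every restricted library was below 1100 and every control above 2300, a 2.64-fold difference (log2 fold change -1.40, standard error 0.08, adjusted p = 8.67e-09). In the valine table the restricted libraries held 617, 416, 562, 663 and 639 and branched-chain controls 1, 3, 4 and 5 held 1285, 1025, 1176 and 1076. The groups did not overlap, restricted library 2 was lowest, and the fall was 1.99-fold (log2 fold change -0.99, standard error 0.15, adjusted p = 0.00142). Tryptophan lowered CCNA2 too (log2 fold change -0.85, standard error 0.08, adjusted p = 4.55e-07), while the values for phenylalanine (-0.31, adjusted p = 0.0504), leucine (-0.20), histidine (-0.06) and isoleucine (-0.01) did not pass the test. CCNA2 overlaps EXOSC9 on the opposite strand and its counts are uncertain to that extent, because no source used here states whether counting used strand.

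CCNB1, cyclin B1, the partner of CDK1 at entry into mitosis, was called lower with methionine and with histidine restricted. With methionine restricted it stood at 679, 708, 590.3, 695 and 805, against 1152, 1242, 1394, 1143 and 1282 in the controls. The highest restricted library, at 805, was below the lowest control, at 1143 (log2 fold change -0.84, standard error 0.09, adjusted p = 3.14e-06). With histidine restricted CCNB1 stood at 814, 756, 723, 832 and 757 against 1063, 1011, 982, 989.6 and 1347, again without overlap, control 5 being far above the other controls (log2 fold change -0.47, standard error 0.09, adjusted p = 0.00205). In the remaining tables the groups overlapped. Tryptophan-restricted libraries held 951, 1200.2, 1279, 1009 and 1280.0 and their controls 1494, 1257, 1313, 1486 and 1079.9 (-0.21, adjusted p = 0.11). Phenylalanine-restricted libraries held 392, 589.8, 438, 495 and 403 and their controls 904, 538, 545, 395 and 540.0, with control 1, which stood apart by ribosomal protein mRNA, highest at 904 (-0.30, adjusted p = 0.384). Branched-chain control 1 was likewise the highest of its group in all 3 tables. For valine the values were 531, 417, 362, 307 and 379 against 657, 465, 581 and 492 (-0.47, adjusted p = 0.0988). For leucine they were 553, 494, 542, 514 and 365 against 609, 441, 546 and 462 (-0.06, adjusted p = 0.834). Isoleucine gave 469, 465, 537, 519 and 494 against 637, 463, 572 and 481 (-0.10, adjusted p = 0.826), a narrow restricted group inside the range of the controls.

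CCNB2, CDC25C, AURKA and NEK2, that is cyclin B2, the phosphatase that activates CDK1, the centrosomal Aurora kinase and a centrosome-splitting kinase, were called lower with methionine restricted and, with all libraries in, in no other comparison. The methionine means were 888 ± 59.8 against 1808 ± 264 normalised counts (SD over 5 and 5 libraries) for CCNB2 (-1.01, adjusted p = 1.15e-06) and 212 ± 39.4 against 414 ± 75.6 normalised counts (SD over 5 and 5 libraries) for CDC25C (-0.96, adjusted p = 0.000147). In the tryptophan comparison the same genes had log2 fold changes of -0.09 (CCNB2), 0.18 (CDC25C), -0.09 (AURKA) and -0.18 (NEK2), none past the threshold, and the test of the difference called all 4 lower with methionine than with tryptophan. CDK1 itself fell with tryptophan (log2 fold change -0.91, standard error 0.11, adjusted p = 1.18e-05), methionine (-0.66, adjusted p = 0.000122) and histidine (-0.43, adjusted p = 0.00269). FOXM1, the transcription factor of this gene class, fell with tryptophan (-0.42, adjusted p = 1.53e-05) and methionine (-0.22, adjusted p = 0.0197), the methionine call being lost under equal totals (adjusted p = 0.243), under scaling by trimmed means (adjusted p = 0.132) and without methionine control 2 (adjusted p = 0.0554). AURKA has a pseudogene in the tables, and NEK2, CDC25C and FOXM1 overlap other genes, so their counts are uncertain.

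PLK1, the polo-like kinase of spindle assembly and mitotic exit, moved in both directions. Its histidine-restricted libraries held 3655, 3477, 3385, 3604 and 3643 normalised counts and the controls 2127, 2940.2, 2908, 3053 and 2458. All 5 restricted libraries were above all 5 controls, and PLK1 rose 1.33-fold (log2 fold change 0.41, standard error 0.09, adjusted p = 0.00451). It fell with phenylalanine (-0.44, adjusted p = 0.00856), tryptophan (-0.28, adjusted p = 0.0014, a call lost with equal totals) and valine (-0.63, adjusted p = 0.0183, or 0.0593 without branched-chain control 5 and 0.0503 without valine restricted 1). For methionine PLK1 was at 2929.8 ± 146 against 3084 ± 395 normalised counts (SD over 5 and 5 libraries), which did not pass the test (-0.06, adjusted p = 0.559). PLK1 overlaps ERN2 on the opposite strand.

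In the spindle checkpoint, whose proteins hold cells in metaphase until every kinetochore is attached, tryptophan lowered all 5 genes, methionine 4, phenylalanine 3, histidine 3 and valine 2. TTK, the kinase MPS1 at the head of the checkpoint (chromosome 6, 80003887 to 80042527), was called lower in 5 comparisons, as were BUB1B, CDCA8, KIF2C and PRC1 and no other of the 40 genes. Under methionine restriction TTK stood at 1024, 1005, 993, 1025 and 1139 normalised counts against 2299, 2472, 2526, 1939.5 and 2601 in the controls. The restricted libraries lay close together, the highest being number 5 at 1139, and TTK fell 2.27-fold (log2 fold change -1.18, standard error 0.08, adjusted p = 5.63e-08). Under tryptophan restriction it stood at 835, 861, 1212, 846 and 1166 against 2643, 2036, 1892, 2271 and 1835. Restricted libraries 3 and 5 were higher than the other 3 but still below every control, and the fall was 2.18-fold (log2 fold change -1.12, standard error 0.13, adjusted p = 4.16e-06). Phenylalanine-restricted libraries held 492, 419, 484, 541 and 439 and their controls 1016, 1185, 1033, 749 and 1142. Control 4 was the lowest control and the groups did not overlap, with a 2.14-fold fall (log2 fold change -1.10, standard error 0.13, adjusted p = 0.00034). For valine the values were 599, 465, 583, 545 and 569.9 against 944, 901, 1139 and 1188, again separate groups, a 1.88-fold fall (log2 fold change -0.91, standard error 0.13, adjusted p = 0.00107). For histidine they were 1155, 1216, 1281, 1422 and 1340.0 against 1769.9, 2008, 1754, 2075 and 2177, separate groups and a 1.52-fold fall (log2 fold change -0.61, standard error 0.08, adjusted p = 0.000114). TTK had log2 fold changes of 0.19 for isoleucine (adjusted p = 0.797) and -0.03 for leucine (adjusted p = 0.929).

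BUB1B, the checkpoint protein BUBR1 that restrains CDC20, fell with methionine (-1), tryptophan (-0.82), phenylalanine, valine (-0.57, adjusted p = 0.00458) and, by the smallest amount, histidine (-0.21, adjusted p = 0.0272, or 0.0776 without histidine restricted 1 and 0.0644 without restricted 2). In the phenylalanine table its libraries held 1023, 871, 915, 1040.5 and 1028 against 1265, 1712, 1691, 1486 and 1563 in the controls. Every restricted library was below every control, of which control 1 was lowest (log2 fold change -0.66, standard error 0.11, adjusted p = 0.00233). BUB1B overlaps the entry BUB1B-PAK6 on the same strand, so its counts are uncertain. MAD2L1, the MAD2 protein that binds CDC20 at unattached kinetochores, was at 492, 489, 609, 598 and 634 in tryptophan-restricted libraries and at 1302, 1179, 1035, 1166 and 906 in their controls. The groups were separate and MAD2L1 fell 1.98-fold (log2 fold change -0.98, standard error 0.11, adjusted p = 2.97e-06). It fell with methionine (-0.69, adjusted p = 1.88e-05) and phenylalanine (-0.48, adjusted p = 0.0165, between 0.0505 and 0.0513 without phenylalanine control 2, restricted 1 or restricted 5).

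BUB1, a kinetochore kinase, fell with methionine (-0.85), tryptophan (-0.54) and histidine (-0.31, adjusted p = 0.00115). In the isoleucine table it was the gene of the 40 with the smallest unadjusted p, and its restricted libraries held 1739.7, 1937, 1746, 1728 and 1610.5 against 1705, 1565, 1299.6 and 1479 in controls 1, 3, 4 and 5. Restricted library 5 lay below control 1, so the groups overlapped, and the difference did not pass the test (log2 fold change 0.22, standard error 0.10, adjusted p = 0.797). BUB3, a WD40 protein that carries BUB1 and BUBR1 to kinetochores, was called in the tryptophan comparison and in no other (4989 ± 302 against 6318 ± 205 normalised counts (SD over 5 and 5 libraries), log2 fold change -0.34, standard error 0.05, adjusted p = 9.38e-05), and lost that call with equal totals. The tryptophan response was below those of methionine (0.46, standard error 0.08, adjusted p = 3.34e-05), histidine and phenylalanine by the test of the difference. Its log2 fold change for methionine was 0.11 (adjusted p = 0.145), the only positive value besides that of CDC20 among the 40 genes in that comparison.

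**Figure D3:**
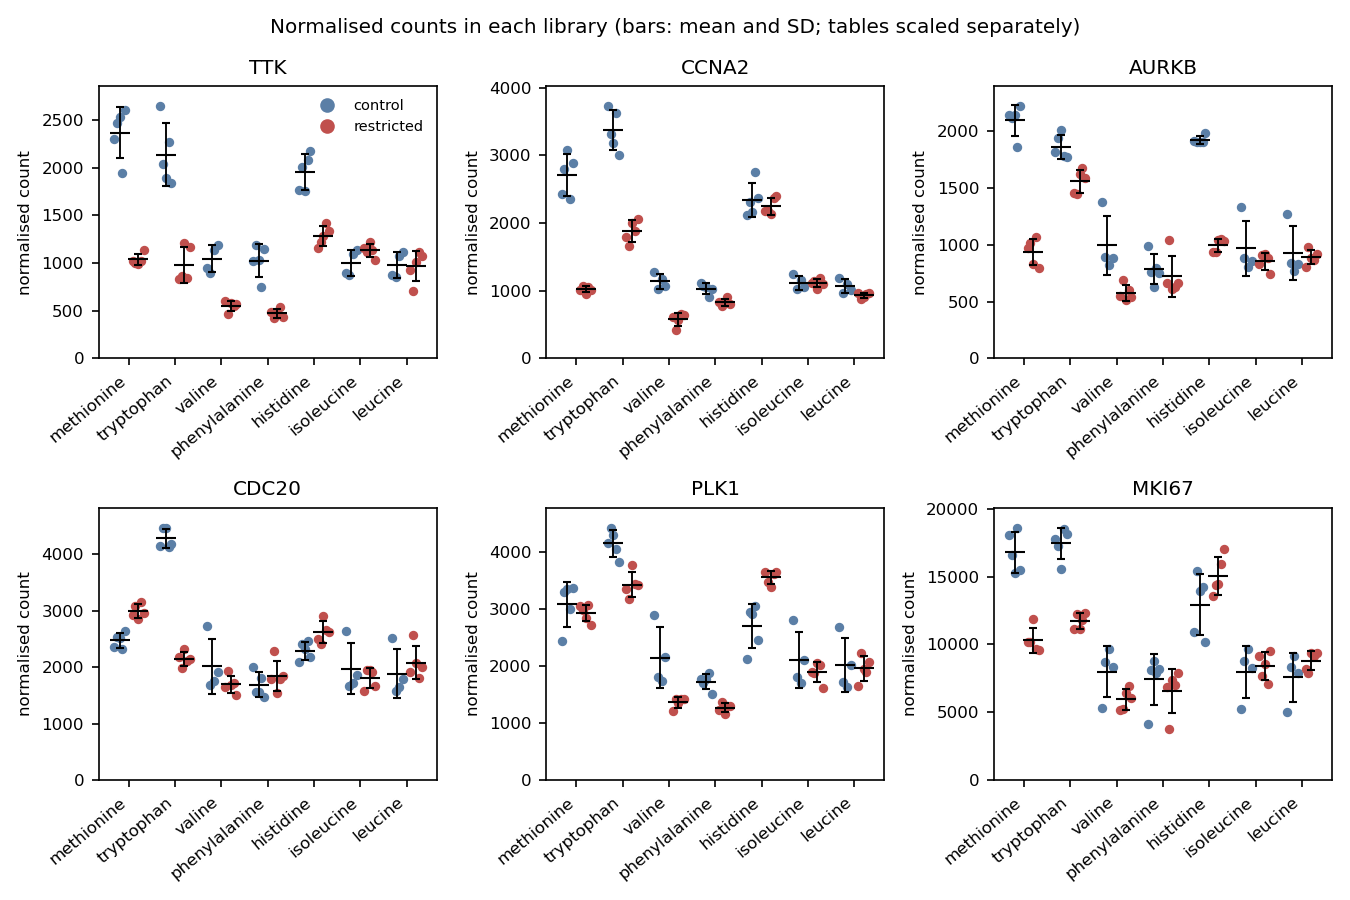
Normalised counts (vertical axes, from 0) of TTK, CCNA2, AURKB, CDC20, PLK1 and MKI67 in each control and restricted library of the 7 tables, with group means and SD; the tables were scaled separately, so heights are compared only within a table. CDC20 is lower in tryptophan-restricted and higher in methionine-restricted libraries, and AURKB is lower in histidine-restricted libraries without overlap.

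For anaphase and cohesion, tryptophan lowered all 5 genes, methionine lowered 3 and raised 1, and histidine lowered 1 and raised 1. Phenylalanine and valine lowered 1 each. CDC20, the activator of the anaphase-promoting complex and target of the checkpoint (chromosome 1, 43358955 to 43363203), took opposite directions. Its tryptophan-restricted libraries held 2176, 1978, 2326, 2109.9 and 2151 normalised counts and the controls 4153, 4465, 4471, 4135 and 4181. No restricted library reached 2400 and every control was above 4000, a 1.99-fold fall (log2 fold change -0.996, standard error 0.06, adjusted p = 4.29e-09). Its methionine-restricted libraries held 2929, 3085, 2852, 3157 and 2952 and the controls 2350.0, 2537, 2522, 2329 and 2634. Every restricted library was above every control, and CDC20 rose 1.21-fold (log2 fold change 0.28, standard error 0.06, adjusted p = 0.00152). The remaining values were 0.19 for histidine (adjusted p = 0.0549), 0.13 for phenylalanine (adjusted p = 0.56), -0.23 for valine, 0.16 for leucine and -0.10 for isoleucine. CDC20 has a pseudogene in the tables, with which its reads could be divided.

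CDCA5, sororin, which protects sister-chromatid cohesion until anaphase, was at 1674, 1678, 1474, 1753 and 1528 in valine-restricted libraries and at 4095, 2561, 2482 and 3150.2 in branched-chain controls 1, 3, 4 and 5. The groups were separate, with control 1 highest (log2 fold change -0.89, standard error 0.15, adjusted p = 0.00241). Phenylalanine-restricted libraries held 1771, 2040.4, 1697, 1707 and 1812 and their controls 3037, 2547, 2758, 2769 and 2483, again separate (log2 fold change -0.59, standard error 0.09, adjusted p = 0.0016). CDCA5 fell with tryptophan (-0.71) and methionine (-0.64) as well, and had a value of 0.17 for histidine (adjusted p = 0.0658). PTTG1, securin, the inhibitor of separase, fell with methionine (-1.05) and tryptophan (-0.85), and UBE2C, a ubiquitin-conjugating enzyme of the anaphase-promoting complex, with those and histidine (-0.33, adjusted p = 0.00972) (both have copies in the tables). ESPL1, separase itself, was higher in histidine-restricted libraries, at 1290.1, 1292, 1375, 1522 and 1472 against 1012, 1121, 1127, 1413 and 872. The groups overlapped through control 4, and the call (log2 fold change 0.34, standard error 0.11, adjusted p = 0.0315) was lost in 5 of the 10 analyses that left out 1 library (histidine restricted 3, 4 or 5, control 1 or 5), where adjusted p lay between 0.0547 and 0.0779. ESPL1 fell with tryptophan (-0.44, adjusted p = 0.000495), a call lost with equal totals.

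The chromosomal passenger complex, which corrects faulty attachments and directs cytokinesis, joins the kinase AURKB with INCENP, survivin (BIRC5) and borealin (CDCA8). AURKB (chromosome 17, 8204733 to 8210600) had the largest fall of the 40 genes under histidine restriction. Histidine-restricted libraries held 934, 937, 1038, 1050.2 and 1029.8 normalised counts and the controls 1912, 1906, 1903, 1905 and 1988. Both groups were tight and far apart, and AURKB fell 1.93-fold (log2 fold change -0.95, standard error 0.06, adjusted p = 2.06e-07). It fell with methionine (937 ± 117 against 2095 ± 138 normalised counts (SD over 5 and 5 libraries), -1.17, adjusted p = 1.22e-07), with valine (-0.76, adjusted p = 0.0114) and with tryptophan (-0.26, adjusted p = 0.00345), the last call being lost with equal totals. In the phenylalanine comparison its value was -0.13 (adjusted p = 0.658).

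The partners INCENP, BIRC5 and CDCA8 all fell with methionine, as AURKB did. INCENP, the scaffold, was higher with histidine restricted (4588 ± 349 against 3763 ± 526 normalised counts (SD over 5 and 5 libraries), 0.29, adjusted p = 0.0301), a call lost without histidine restricted 3, 4 or 5 or control 1 (adjusted p between 0.0527 and 0.0772), and fell with methionine (-0.59) and tryptophan (-0.58). BIRC5 fell with methionine (-0.64) and phenylalanine (-0.47, adjusted p = 0.0261, lost without restricted 1, 3, 4 or 5 or control 2, where adjusted p lay between 0.0501 and 0.0696), and had values of 0.14 for histidine and 0.05 for tryptophan. CDCA8 fell in 5 comparisons, by log2 fold changes of -0.77 (methionine), -0.68 (valine), -0.39 (histidine), -0.39 (phenylalanine) and -0.33 (tryptophan, lost with equal totals).

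The 3 centromere and kinetochore genes all fell with methionine, and none was called for tryptophan, phenylalanine or histidine. CENPA, the centromeric histone, fell with methionine (-0.36, adjusted p = 0.00297) and valine (-0.63, adjusted p = 0.0306, or between 0.0505 and 0.0782 without valine restricted 1, 3 or 5 or branched-chain control 1, 4 or 5). CENPE, a motor that moves chromosomes to the equator, fell with methionine (-0.49, adjusted p = 0.00122) and had a positive value for tryptophan (2849 ± 429 against 2424 ± 329 normalised counts (SD over 5 and 5 libraries), 0.23, adjusted p = 0.0871, or 0.0288 without tryptophan restricted 1 and 0.0296 without control 1). CENPF, a large kinetochore protein, fell with methionine (-0.37, adjusted p = 0.00367, or 0.0538 with equal totals). Its values of -0.53 for valine and -0.37 for phenylalanine did not pass with all libraries, but did without branched-chain control 1 and valine restricted 2 (CENPF adjusted p = 0.000672) and without phenylalanine control 1 and restricted 2 (adjusted p = 0.0269). Its histidine value was -0.21 (adjusted p = 0.0506).

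All 7 genes of spindle motors and assembly fell with methionine and 5 fell with tryptophan. Phenylalanine lowered 3, valine 2, histidine lowered 3 and raised 3, and leucine raised 2. DLGAP5, which stabilises microtubules near chromosomes and whose promoter is printed above, was at 1185, 1136, 1108, 1097 and 1199.7 in methionine-restricted libraries and at 2889, 2653, 3016, 2412 and 2871 in the controls. The highest restricted library was at less than 1300 and the lowest control above 2400, a 2.41-fold fall (log2 fold change -1.27, standard error 0.07, adjusted p = 7.24e-09). It fell too with phenylalanine (-0.57), tryptophan (-0.57) and histidine (-0.32, adjusted p = 0.00457). For isoleucine its values were 1111, 1301, 1147, 1257 and 1154 against 1067, 973, 1131 and 1019.9, overlapping at control 4 and not past the test (log2 fold change 0.19, standard error 0.09, adjusted p = 0.797).

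KIF2C, the MCAK kinesin that depolymerises microtubules at centromeres, was at 1765, 1797, 1648, 1889 and 1654 with methionine restricted and at 4135, 3971, 4362, 3602 and 4535 in the controls. The groups were separate, and KIF2C fell 2.35-fold (log2 fold change -1.23, standard error 0.07, adjusted p = 1.11e-08). With phenylalanine restricted it was at 1012, 1136, 921, 937 and 994 against 1891, 1794, 1698, 1780.0 and 1729. Those groups were separate too, with a 1.78-fold fall and the smallest adjusted p of the 40 genes in that comparison (log2 fold change -0.83, standard error 0.09, adjusted p = 0.000112). It fell with valine (-0.69), tryptophan (-0.57) and histidine (-0.26, adjusted p = 0.0337), the last lost in 7 of 10 analyses without 1 library (restricted 1, 2, 3 or 5, control 2, 3 or 4), where adjusted p lay between 0.0563 and 0.0827. KIF11, the Eg5 motor that separates spindle poles, fell with methionine (-0.84), tryptophan (-0.74), valine (-0.73, adjusted p = 0.0178, or 0.0541 and 0.0518 without branched-chain control 4 or 5) and histidine (-0.26, adjusted p = 0.0206, or 0.0557 without restricted 3), with a value of -0.07 for phenylalanine.

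KIF4A, a chromosome-bound kinesin, was higher in histidine-restricted libraries, at 1494, 1532, 1466, 1601 and 1612 against 1110.3, 1293, 1161, 1281 and 1175. Every restricted library exceeded every control (log2 fold change 0.36, standard error 0.07, adjusted p = 0.00136). Leucine-restricted libraries held 841, 973, 894, 944 and 888 and branched-chain controls 1, 3, 4 and 5 held 626, 632, 722 and 691, also without overlap (log2 fold change 0.44, standard error 0.10, adjusted p = 0.0181). TPX2, which activates AURKA on spindle microtubules, was at 4399, 4545, 5013, 4648 and 4808 against 3609, 3393, 3766 and 3739.6 in the same table, without overlap (log2 fold change 0.37, standard error 0.08, adjusted p = 0.0209). Both leucine calls are fragile: without leucine restricted 3 they had adjusted p = 0.0523 (KIF4A) and 0.0706 (TPX2), without restricted 4 0.0567 and 0.0609, and TPX2 had 0.0641, 0.0527 and 0.0511 without restricted 5, control 3 and control 5. Without branched-chain control 1, 5 of the 40 genes were called higher for leucine (AURKA, CCNB2 and CDC25C besides these), and with control 4 left out 3 were. Of all genes 10.11% and 8.835% were called in these 2 runs, against 7.745% with all libraries. TPX2 rose with histidine (7280.0 ± 411 against 6093 ± 425 normalised counts (SD over 5 and 5 libraries), 0.26, adjusted p = 0.00995) and fell with methionine (-0.67), phenylalanine (-0.59) and tryptophan (-0.51). KIF4A fell with methionine (-0.32, adjusted p = 0.00124), and its tryptophan value of -0.05 turned to a rise of 0.19 with equal totals. It has a copy, KIF4B, and overlaps PDZD11.

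HMMR, a microtubule-binding receptor for hyaluronan, shared the histidine rise (0.26, adjusted p = 0.0109) and the methionine fall (-0.35, adjusted p = 0.0024) of KIF4A and TPX2. NUSAP1, a spindle-associated microtubule stabiliser, fell with methionine (-0.72) and tryptophan (-0.43, adjusted p = 0.000118) and had a value of 0.05 for histidine.

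The 5 genes of the midzone and cytokinesis all fell with methionine, tryptophan and phenylalanine, and 3 of them fell with histidine and 3 with valine. With equal totals the phenylalanine calls of ANLN, KIF20A, KIF23 and PRC1 were lost, and that of ECT2 was kept. ECT2, the exchange factor that activates RhoA for the contractile ring, was at 1557, 1620.0, 1682, 1790.3 and 1686 in histidine-restricted libraries and at 2367, 2356, 2346, 2676 and 2509.9 in the controls. The groups were separate, with a 1.47-fold fall (log2 fold change -0.56, standard error 0.06, adjusted p = 3.04e-05). Its other falls were of like size, -0.67 for methionine, -0.59 for tryptophan and -0.53 for phenylalanine, and its valine value was -0.48 (adjusted p = 0.0544). ANLN, anillin, a scaffold of the contractile ring, was at 791, 897, 1043, 849.6 and 985 with tryptophan restricted and at 2118, 1767, 1579, 1749 and 1456 in the controls. The groups were separate, and ANLN fell 1.89-fold (log2 fold change -0.92, standard error 0.10, adjusted p = 3.33e-06). With valine restricted it was at 415, 304, 404, 467 and 454 against 649.9, 622, 828 and 817, separate groups with restricted library 2 lowest (log2 fold change -0.84, standard error 0.16, adjusted p = 0.00551).

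ANLN fell also with methionine (-0.99) and phenylalanine (-0.57, adjusted p = 0.0245, or between 0.0565 and 0.0677 without restricted 1 or 5 or control 2, 3 or 5), and had a value of -0.10 for histidine. PRC1 fell in 5 comparisons, with log2 fold changes of -1.06 (methionine), -0.69 (tryptophan), -0.60 (valine, adjusted p = 0.0152, or 0.0521 without branched-chain control 5), -0.40 (phenylalanine) and -0.28 (histidine). KIF20A, a midzone kinesin, fell more with methionine (752 ± 46.8 against 1609 ± 90.2 normalised counts (SD over 5 and 5 libraries), -1.10) than its values of -0.33 for phenylalanine, -0.26 for tryptophan (-0.02 and not called with equal totals) and -0.22 for histidine. Its phenylalanine and histidine calls were lost in 8 and 7 of 10 analyses without 1 library (adjusted p up to 0.0905 without phenylalanine control 2 and 0.0863 without histidine restricted 3).

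KIF23, the MKLP1 kinesin of the midzone, fell with methionine (-0.79), tryptophan (-0.52), phenylalanine (-0.45, adjusted p = 0.0198, or between 0.0534 and 0.059 without restricted 3 or 4 or control 2, 3 or 5) and valine (-0.53, adjusted p = 0.0135, or 0.0598 without branched-chain control 5). In the isoleucine table it was at 1144, 1007, 991, 1103 and 1089 against 902, 834, 923 and 1048. Control 5 lay within the restricted range and the difference did not pass (log2 fold change 0.21, standard error 0.09, adjusted p = 0.797). PRC1, ECT2 and KIF20A overlap genes on the opposite strand.

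MKI67, which encodes the Ki-67 antigen that coats mitotic chromosomes and is the usual marker of dividing cells, fell in 2 comparisons. Methionine-restricted libraries held 10186, 10215, 11850.0, 9627 and 9586 normalised counts and the controls 18076, 16606, 15243, 18613 and 15471. The groups were separate, with restricted library 3 highest of its group (log2 fold change -0.71, standard error 0.08, adjusted p = 4.42e-06). Tryptophan-restricted libraries held 11118, 12271, 11114, 11812 and 12290.0 and the controls 17809, 17286, 15531, 18526 and 18133, also separate (log2 fold change -0.57, standard error 0.06, adjusted p = 1.52e-06). With histidine restricted it was at 13562, 14351, 14426, 15967 and 17022 against 10894, 15448, 13939, 14249 and 10193, overlapping groups whose controls 1 and 5 were lowest (0.23, adjusted p = 0.133).

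In the phenylalanine table MKI67 was at 6849, 3792, 7362, 7025 and 7929.9 in restricted libraries and 4124, 8151, 8785, 7862 and 8164 in controls. Restricted 2 and control 1 lay far below the other libraries of their groups, and these are the libraries whose 79 ribosomal protein mRNAs were high (0.14 against -0.90 to -0.73 in the other restricted libraries, and 0.57 against -0.31 to -0.05 in the other controls). The difference did not pass the test (log2 fold change -0.17, standard error 0.24, adjusted p = 0.713), and had adjusted p = 0.0452 at a log2 fold change of -0.18 without these libraries. Valine gave 5129, 5232, 6434, 6907 and 6042 against 5338, 8679.7, 9645 and 8305, with branched-chain control 1, high in ribosomal protein mRNA, lowest of its group (-0.40, adjusted p = 0.145, or -0.54 and 0.00224 without it and valine restricted 2). Leucine gave 8206, 7878, 9366, 9129 and 9403 against 4996, 8313, 9165 and 7879.6 (0.25, adjusted p = 0.35, or 0.06 on the log2 scale without control 1). Isoleucine gave 9160.2, 7637, 8537, 7080.4 and 9539 against 5259, 8787, 9651 and 8246 (0.10, adjusted p = 0.88, or -0.09 without control 1). The part of ribosomal protein mRNA in these values was not tested. MKI67 has a pseudogene in the tables. TOP2A, the topoisomerase that disentangles chromatids, fell with methionine (-0.89), histidine (-0.32, adjusted p = 0.00264) and tryptophan (-0.28, lost with equal totals).

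Among the 4 comparisons with separate controls, 8 genes fell in all 4 (BUB1B, TTK, CDCA8, DLGAP5, KIF2C, KIF20A, ECT2 and PRC1), 11 in 3, 9 in 2 and 12 in 1, and 0 fell in none. Of all tested genes 25.4% fell with methionine, 27.7% with tryptophan, 12.3% with histidine and 6.09% with phenylalanine. Falls of all genes in several comparisons at once were not counted. Some calls behind the 8 were fragile, such as KIF20A with histidine and phenylalanine and KIF2C with histidine. Restricted and control libraries did not overlap, with the restricted lower, for 33 genes under methionine (19% of all tested genes), 29 under tryptophan (21.9%), 14 under phenylalanine (6.1%) and 12 under histidine (8.2%). With shared controls the counts were 18 for valine (9.13%), 1 for leucine (6.81%) and 0 for isoleucine (0.818%). The valine count of calls was 13, where 12.5% of all tested genes were called. It went to 8 without branched-chain control 5, where 6.615% of all genes were called. Without branched-chain control 1 and valine restricted 2 it went to 23, where 25.02% of all genes were called. With all libraries in the valine comparison, 29 of the 40 genes had an unadjusted p below 0.05 (28% of all tested genes). For isoleucine 1 of 40 did (5.25% of all tested genes), the smallest adjusted p was 0.797 among the 40 genes and 0.0582 among all genes, and the 95% intervals of 35 of the 40 lay within 0.5 of 0 on either side, their outermost ends over all 40 being -0.53 and 0.67.

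The differences between responses were tested directly for the 6 pairs of amino acids with separate controls. The response to methionine was lower than that to histidine for 33 of the 40 genes and higher for 0 (34.4% of all tested genes differed in that pair). The smallest adjusted p-values, histidine minus methionine, were those of CCNA2 (1.34, standard error 0.11, adjusted p = 4.85e-09) and TPX2 (0.93, standard error 0.09, adjusted p = 2.67e-08). Tryptophan and histidine differed for 25 genes (43.3% of all genes), 24 of them higher with histidine, with the smallest adjusted p-values for CDC20 (1.19, standard error 0.09, adjusted p = 4.08e-10) and CDCA5 (0.89, standard error 0.09, adjusted p = 4.83e-08). Phenylalanine and histidine differed for 10 (9.66% of all genes), 9 of them higher with histidine, with the smallest adjusted p-values for TPX2 (0.84, standard error 0.11, adjusted p = 3.34e-05) and CDCA5 (0.76, standard error 0.11, adjusted p = 7.55e-05). AURKB was the exception in both of these pairs, lower with histidine than with tryptophan (-0.69, standard error 0.08, adjusted p = 5.21e-07) or phenylalanine (-0.81, standard error 0.17, adjusted p = 0.00436). Its histidine and methionine responses were not called different (0.22, 95% interval -0.00 to 0.44).

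Methionine and tryptophan, the 2 amino acids with the most falls, differed for 23 genes, a share close to the 53.6% of all tested genes. Of the 23 genes, 20 were lower with methionine. CDC20 showed the largest difference of these, methionine minus tryptophan (1.27, standard error 0.08, adjusted p = 6.3e-12), and BUB3 (0.46) and ESPL1 (0.30, standard error 0.11, adjusted p = 0.0206) were the other genes lower with tryptophan. In the opposite direction stood CDC25C (-1.14, standard error 0.19, adjusted p = 2.76e-05), AURKB (-0.91, standard error 0.11, adjusted p = 3.31e-07), KIF20A (-0.83, standard error 0.09, adjusted p = 1.21e-07) and CENPE (-0.72, standard error 0.16, adjusted p = 0.000592). TTK differed by -0.06 (95% interval -0.39 to 0.27), so its responses to the pair were not told apart at this precision. Methionine and phenylalanine differed for 19 genes (29.4% of all genes), 18 of them lower with methionine, with the smallest adjusted p-values for CCNA2 (-1.09, standard error 0.12, adjusted p = 7.21e-07) and KIF20A (-0.77, standard error 0.10, adjusted p = 6.82e-06); PLK1 was lower with phenylalanine (0.38, standard error 0.12, adjusted p = 0.0257). Phenylalanine and tryptophan differed for 12, a share close to the 32.6% of all genes. Of the 12 genes, 10 were lower with tryptophan. The smallest adjusted p-values were those of CDC20 (1.12, standard error 0.13, adjusted p = 1.45e-06) and CDK1 (0.82, standard error 0.16, adjusted p = 0.000545). BIRC5 (-0.52, standard error 0.13, adjusted p = 0.00469) and KIF2C (-0.26, standard error 0.10, adjusted p = 0.0376) were lower with phenylalanine.

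**Figure D4:**
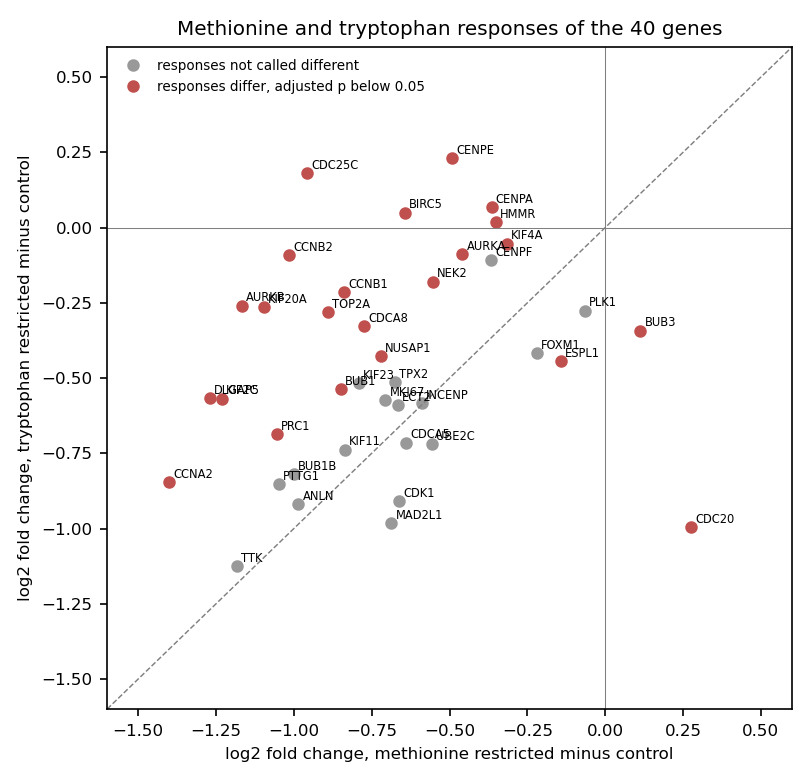
Log2 fold change of the 40 genes with methionine restricted (horizontal axis) and with tryptophan restricted (vertical axis); points off the dashed line of equal response that are red differ by the limma test of the difference. CDC20 stands alone at the lower right (0.28 and -0.996), and CDC25C and CENPE lie above 0 on the tryptophan axis.

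Other genes of the same machinery gave the surroundings of these responses. They were listed by textbook role, but with earlier results of these data known. Of 16 other spindle motors and organisers, methionine lowered 14 and tryptophan 12 (and raised 2); SPAG5, an astrin that guards spindle poles, was -1.22 for methionine, and KIF22, a chromosome-arm kinesin, -1.24 for tryptophan. Of 30 other kinetochore genes, methionine lowered 20 and raised 3 and tryptophan lowered 25 and raised 1, ZWINT falling in both (-1.15 and -1.24). CENPH, of the inner kinetochore, fell to 143 ± 34.9 against 1048 ± 216 normalised counts (SD over 5 and 5 libraries) with methionine (-2.88, adjusted p = 8.67e-09). NDC80, the microtubule-binding kinetochore protein, rose with histidine (0.75, adjusted p = 8.02e-06), where 8 of those 30 rose and 4 fell. Of 17 condensin and cohesin genes, methionine lowered 11 and raised 3 and tryptophan lowered 15, the condensin subunit NCAPD2 falling with methionine (-0.89), histidine (-0.63) and phenylalanine (-0.51).

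Of 17 genes of the anaphase-promoting complex and its regulators, methionine raised 8 and lowered 2 (median 0.33, against -0.70 for the 40 genes), and tryptophan raised 1 and lowered 10 (median -0.25). ANAPC2, the cullin subunit, was at 1280.2 ± 78.1 against 756 ± 36.6 normalised counts (SD over 5 and 5 libraries) with methionine (0.76, adjusted p = 7.58e-07), and FBXO5, the EMI1 inhibitor of the complex, fell with tryptophan (-1.32, adjusted p = 1.35e-08). Of 9 regulators of the G2 checkpoint methionine lowered 7 and tryptophan 6, the phosphatase CDC25A falling in both (-1.02 and -1.66). Of 14 DREAM, MuvB and NF-Y genes methionine and tryptophan each lowered 7 and raised 2, with MYBL2, which encodes B-MYB, at -1.15 and -1.39, whereas histidine raised 6, NFYC among them (0.61), and lowered 1, MYBL2 (-0.34, adjusted p = 0.00128).

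Of 18 genes of G1 and the G1/S transition, 16 fell with methionine (median -1.38, beside -0.70 for the 40 genes of G2 and mitosis) and 17 with tryptophan (median -1.26, beside -0.48). MCM2, a helicase subunit of replication origins, was at 1797 ± 70.4 against 6490.0 ± 383 normalised counts (SD over 5 and 5 libraries) with methionine (-1.85, adjusted p = 3.04e-11) and at 3621 ± 196 against 10845 ± 587 normalised counts (SD over 5 and 5 libraries) with tryptophan (-1.58, adjusted p = 1.05e-10). In the valine and phenylalanine comparisons the medians of those 18 genes were -0.00212 and -0.22, with 1 and 3 lower (CDT1, the origin-licensing factor, at -1.20 and -1.12) and, for valine, 2 higher. Leucine raised 6 of the 18 (median 0.29), MCM4 among them (0.61, adjusted p = 0.00149). Of 5 tested CDK inhibitor genes tryptophan raised 4 and lowered 1, CDKN1A, which encodes p21 (-2.43, adjusted p = 1.23e-07), and methionine lowered 3 and raised 1. The medians of different lists were not tested against each other.

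**Figure D5:**
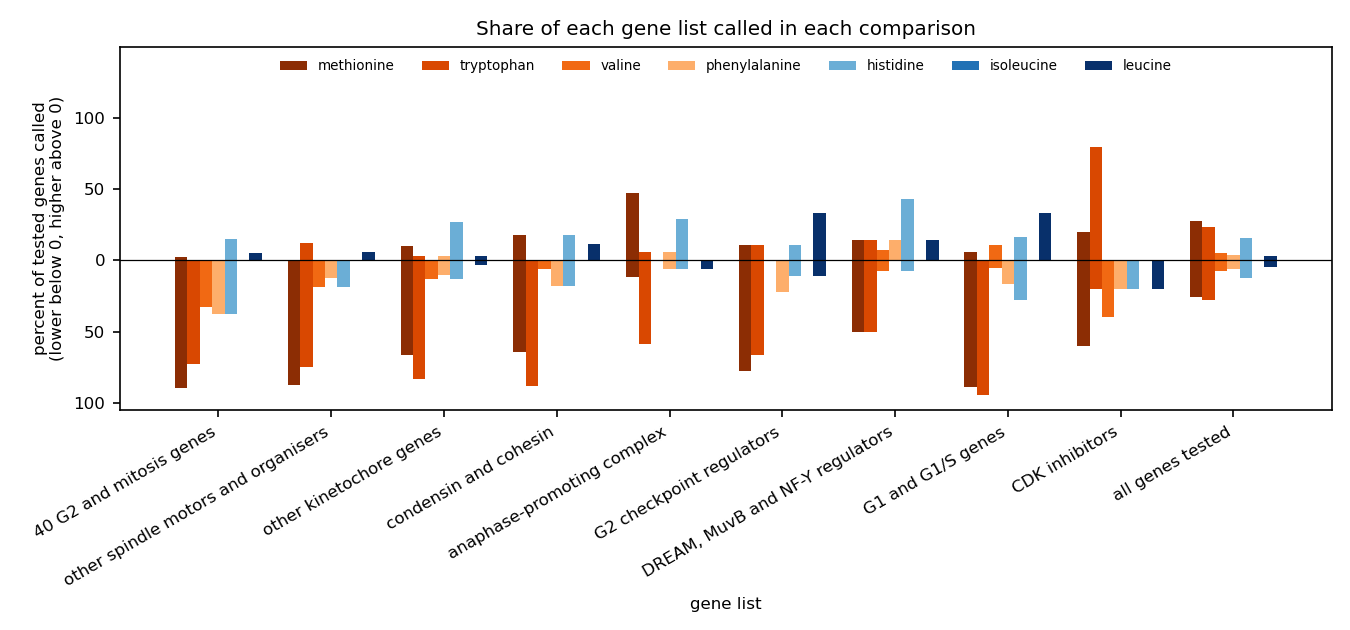
Percent of the tested genes of each list that were called higher (above 0) or lower (below 0) in each of the 7 comparisons (colours), with all tested genes at the right. Of the 40 genes 36 were called lower for methionine and 29 for tryptophan, and the anaphase-promoting complex stands mostly above 0 for methionine.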

How the data were processed

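RNA from 59 Jurkat libraries was quantified by the authors, who deposited, for each of the 7 amino acids, normalised counts as a non-negative signal. GRCh38 is the build in the submitters' processing notes, which list kallisto 0.50.1, FastQC 0.11.9 and DESeq2 1.44.0. No source used here gives the annotation release or the strand setting. The authors scaled the tables separately, so all tests stayed within a table. Where low values were divided by the worth of a single read, at most 82.2% per library came out whole within 0.1, so whole reads were not recovered and no count model was fitted; the depth in reads is unknown.

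Tested genes had a table mean of 10 or more normalised counts and were analysed on log2(normalised count + 1), which understates the change of low genes, with limma 3.58.1 in R 4.3.3 (lmFit, eBayes with an intensity trend, two-sided), tables being read with data.table (version 1.17.8). P-values were adjusted by Benjamini-Hochberg over all genes of a table and called below 0.05. Differences of responses were interaction terms over 4 groups, each table on its own scale, for the 6 pairs with separate controls, adjusted over all genes of a pair. The tests were tried on simulated data with known changes. The 40 genes, the other lists and the tests were chosen with earlier results of these data known. Shown by library are MKI67, CCNB1 and, in each comparison, up to 4 largest falls and 3 largest rises among called genes or, where none was called, the 3 genes with the smallest p. From other lists the 2 genes with the smallest adjusted p in a comparison could be named.

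Same-numbered libraries of restricted and control groups had correlated deviations of -0.19 to 0.19, and in no comparison was every pair above 0.1. Alternatives were pseudocounts of 0.25 and 5, no filter, a minimum mean of 100, scaling by equal totals or by the trimmed mean of M values, the replicate number as a block, each library left out, and omission of the 4 libraries whose reads were least certain. Gene positions come from GENCODE 29 on GRCh38 and promoter windows from RefSeq. Of the 40 genes, 17 overlap another gene or have a copy in the tables and are uncertain to that extent. Figures were drawn with matplotlib 3.10.9.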

Additional observations from a re-analysis of the deposited data

Results flagged for a closer look

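In 6 of 98 groups of 4 or 5 libraries tested, where chance would mark about 5%, 1 library lay far from the others. CCNB1 was at 1347 normalised counts in histidine control 5, the next being 1063, and AURKB was at 1988 in the same library, the next being 1912. MKI67 was at 11850 in methionine restricted 3 (next 10215) and TTK at 1139 in methionine restricted 5 (next 1025). MKI67 was at 3792 in phenylalanine restricted 2 (next 6849) and at 4124 in phenylalanine control 1 (next 7862), the libraries high in ribosomal protein mRNA.

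The responses to 2 amino acids differed by limma's test of the difference for 33 genes (histidine and methionine), 10 (histidine and phenylalanine), 25 (histidine and tryptophan), 19 (methionine and phenylalanine), 23 (methionine and tryptophan) and 12 (phenylalanine and tryptophan). Of all tested genes 34.4%, 9.66%, 43.3%, 29.4%, 53.6% and 32.6% differed, in the same order of pairs. For methionine and tryptophan and for phenylalanine and tryptophan, the share among the genes described here was close to that of all genes. The genes with the smallest adjusted p were CCNA2 (1.34) and TPX2 (0.93) for histidine minus methionine, TPX2 (0.84) and CDCA5 (0.76) for histidine minus phenylalanine, and CDC20 (1.19) and CDCA5 (0.89) for histidine minus tryptophan, each a difference of log2 fold changes. For methionine minus phenylalanine they were CCNA2 (-1.09) and KIF20A (-0.77), for methionine minus tryptophan CDC20 (1.27) and KIF20A (-0.83), and for phenylalanine minus tryptophan CDC20 (1.12) and CDK1 (0.82).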

How the results depend on the processing

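No called gene of the 40 changed direction under any alternative run. The calls held under every alternative for 35 of 37 genes with methionine, 22 of 29 with tryptophan (the other 7 lost theirs with equal totals), 13 of 21 with histidine, 8 of 13 with valine, 6 of 15 with phenylalanine and 0 of 2 with leucine. For histidine, the trimmed mean of M values gave 10 higher and 9 lower genes and a median of 0.011, of opposite sign. Of all 17696 genes 3575 were higher and 1612 lower. For methionine it gave 2 higher, where 5355 of all 16890 genes were higher, and a median of -0.62. Equal totals gave 10 higher for histidine, where 3372 of all 17730 genes were higher. For methionine they gave 2 higher, where 5841 of 16902 were, and a median of -0.57. For phenylalanine they gave 9 lower, where 758 of 17016 were, and a median of -0.19. For tryptophan they gave 6 higher, where 6872 of 16697 were, and a median of -0.23. The median for valine was -0.33, and KIF4A was at 0.19 with tryptophan (adjusted p = 0.0274 in limma). Both scalings divide all genes of a library by a common factor, which differs between libraries. Tryptophan- and methionine-restricted libraries had smaller totals than their controls, so equal totals by construction raised their values relative to the controls. How the other shifts arose was not tested. With the replicate number as a block, 6 genes were lower for phenylalanine (BUB1B, CDCA5, DLGAP5, KIF2C, TPX2 and TTK, none of midzone and cytokinesis), with 803 of all genes called. For leucine 0 were higher (775 of all genes called), and for valine 21 were lower (3059 of all genes called). Between histidine and phenylalanine 6 responses differed. The numbers share no pairing in the labels, and the block leaves out the branched-chain libraries without a partner. Without the libraries of least certain reads, 5 genes were higher for leucine, 21 lower for phenylalanine and 23 lower for valine, all genes called came to 4435 for phenylalanine and 4210 for valine, and 16 responses differed between histidine and phenylalanine; the cause was not tested. Without a filter 1 gene of all was called for isoleucine. Leaving out each library in turn gave these ranges. Genes called lower were 12 to 17 for histidine, 35 to 36 for methionine, 10 to 18 for phenylalanine, 29 to 30 for tryptophan and 8 to 18 for valine. Genes called higher were 4 to 8 for histidine, 0 to 1 for tryptophan (CENPE) and 0 to 5 for leucine. All genes called were 1103 to 2542 for phenylalanine, 0 to 1 for isoleucine, 511 to 1674 for leucine and 1110 to 2657 for valine. For isoleucine no alternative called any of the 40 genes. The depth in reads is unknown, so no floor for low values can be given, and all 40 genes had means well above the filter.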
